A study of Mus musculus with 11 samples.

Results

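Cyclins and cyclin-dependent kinases (CDKs) were followed in RNA of sorted mouse B cells as a group of 10 genes, made up of 7 cyclins (Ccnd2, Ccnd3, Ccne1, Ccne2, Ccna2, Ccnb1 and Ccnb2) and the kinases Cdk4, Cdk6 and Cdk2. The genes were listed by symbol and found by Ensembl identifier among 48795 genes of the expression table, and all 10 were present and passed the filter of a mean of at least 1 TPM in both comparisons. TPM values correct the estimated reads for the length of each transcript and give every library the same sum, so levels of different genes can be set side by side.

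The 11 libraries came from spleens of female mice aged 8 to 12 weeks, each taken on day 10 after intravenous immunization with sheep red blood cells (SRBC). 4 libraries were of light zone (LZ) germinal center (GC) B cells of Myc WT mice (mice 1 to 4), 4 of the same cells of Myc V394D mice (mice 5 to 8, Myc VD below), and 3 of memory B cells (MBCs) of Myc WT mice 1, 3 and 4. The V394D change replaces a valine of MYC, at its own locus, by aspartic acid and removes binding to the transcription factor MIZ1. LZ cells were sorted as B220+, Fas+, CD86 high and CXCR4 low, without CD138, IgD or CD38, and MBCs as B220+, CD38+ and CD273+, without CD138 or IgD. Before sorting, B cells were enriched with CD43 beads, and each library held cells of 1 mouse. All groups were immunized, and no unimmunized cells were analysed here. The titles of Myc WT mice 1 to 3 share the prefix BRAC861, that of mouse 4 has BRAC1235 and those of all Myc VD mice have DCCT13, so genotype and title prefix cannot be told apart. In bulk RNA, fewer cells of a type and less RNA per cell cannot be told apart either. Since TPM hold no sequencing depth, no counting interval can be given, and p-values set each difference against the spread among libraries. When MBCs are compared with LZ B cells, mice 1, 3 and 4 stand in both groups. The main fit treats their libraries as independent.

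Cyclins are the regulatory partners of CDKs, and a kinase becomes active only when a cyclin is bound to it. D-type cyclins with CDK4 or CDK6 begin the phosphorylation of the retinoblastoma protein in G1, cyclin E with CDK2 carries the cell into S phase, cyclin A acts through S and G2, and B-type cyclins with CDK1 drive mitosis. In the GC, B cells that receive help in the LZ re-enter the cycle and divide in the dark zone, where cyclin D3 is the D-type cyclin known for sustaining these divisions, while MBCs are largely at rest.

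The promoters of Cdk4, Ccnb1 and Ccnb2 are shown because these genes fell in MBCs and their windows held the most matches to elements known for MYC or for cell cycle genes. RefSeq windows of 250 bases before the transcription start (GRCm38.p6) were at hand for 7 of the 10 genes, in 8 windows, and were searched on both strands for the E-box CACGTG bound by MYC, for CCAAT, the box bound by NF-Y, and for TTTGAA, the core of the cell cycle homology region (CHR). No window was given for Ccnd2, Ccne2 and Ccna2. The sequences below run 5′ to 3′ on the strand of the gene, with the matches in capitals, and bases inside the GENCODE model of the gene were left off.
Cdk4, chr10:127063285-127063533, + strand: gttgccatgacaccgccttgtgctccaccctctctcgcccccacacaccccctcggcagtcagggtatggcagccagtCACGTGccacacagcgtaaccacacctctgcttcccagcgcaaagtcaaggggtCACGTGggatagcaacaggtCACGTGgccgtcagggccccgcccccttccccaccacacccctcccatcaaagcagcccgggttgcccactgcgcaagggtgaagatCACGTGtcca
Ccnb1, chr13:100786571-100786736, - strand: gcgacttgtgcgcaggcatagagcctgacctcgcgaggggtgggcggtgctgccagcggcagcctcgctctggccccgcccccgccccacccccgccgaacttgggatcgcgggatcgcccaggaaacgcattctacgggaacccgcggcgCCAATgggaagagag
Ccnb2, chr9:70421555-70421804, - strand: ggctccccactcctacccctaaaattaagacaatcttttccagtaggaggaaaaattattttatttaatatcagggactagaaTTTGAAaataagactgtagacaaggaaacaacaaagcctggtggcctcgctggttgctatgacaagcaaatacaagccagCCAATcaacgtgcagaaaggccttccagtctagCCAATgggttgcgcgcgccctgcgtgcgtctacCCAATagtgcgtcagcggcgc

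The Cdk4 window held 4 E-boxes, which began 172, 118, 98 and 11 bases before the RefSeq start. Among all 32851 windows of this length, 6.02% held at least 1 E-box and 7 windows, or 0.0213%, held at least 4. The Ccnb2 window held 3 CCAAT boxes, at 87, 54 and 21 bases before the start and 33 bases apart, and 1 TTTGAA at 167 bases. At least 3 CCAAT boxes stood in 2.79% of windows and at least 1 TTTGAA in 16.0%. The Ccnb1 window held 2 CCAAT boxes, 32 bases apart and 99 and 67 bases before the RefSeq start; the nearer lies in the GENCODE first exon and is not printed. At least 2 such boxes stood in 10.1% of windows. Of the others, Cdk6 had 1 E-box, Cdk2 had 1 CCAAT box, 1 of the 2 windows of Ccnd3 had 1 CCAAT box, and the Ccne1 window had 0 matches. The printed windows were chosen for their matches, so the shares of all windows are no measure of chance for them. A match is a description of these letters and not a bound site.

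In LZ B cells of Myc WT mice, the levels fell into a high and a low set. Cdk4 was highest by mean TPM, followed by Ccna2, Ccnd3, Ccnb1 and Ccnb2, and then at a distance by Cdk6, Ccne2, Cdk2, Ccne1 and Ccnd2. The lowest value of the high set, 30.5 TPM for Ccnb1 in mouse 4, lay just above the highest Cdk6 value, 28.4 TPM. The lowest Ccnb2 value was 40.7 TPM, and within the high set each gene's range overlapped that of its neighbour. Cdk6, Ccne2 and Cdk2 overlapped among themselves and lay above Ccne1, which in turn overlapped Ccnd2. By RNA, the D-type cyclin of LZ B cells was thus almost entirely Ccnd3 and the G1 kinase mostly Cdk4. The remaining D-type cyclin, Ccnd1, named here outside the rule and after its values were seen, was at 0.33 to 1.75 TPM in Myc WT LZ B cells and 0.83 to 3.47 TPM in MBCs. The plot of TPM by library shows these values for all 10 genes.

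**Figure D1:**
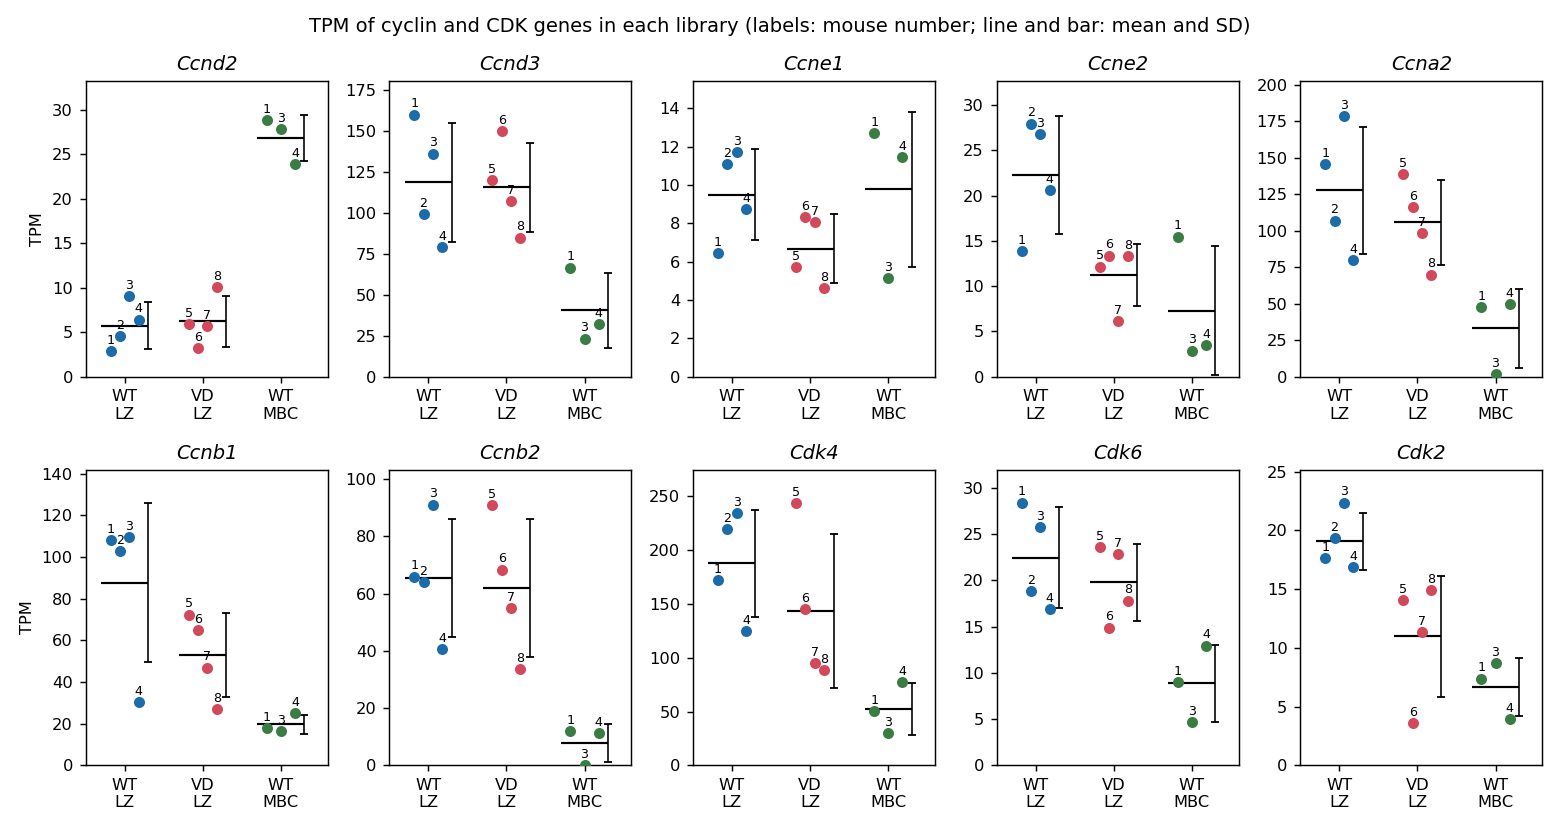
TPM of each of the 10 genes in each library, by group (Myc WT LZ, Myc VD LZ, Myc WT MBC), with the mouse number beside each point and the group mean and SD as a line and a bar. Ccnd2 is higher in all 3 MBC libraries (23.9 to 28.8 TPM) than in every LZ library, and 7 other genes are lower in all 3 MBC libraries than in every Myc WT LZ library.

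MBCs were set against LZ B cells of Myc WT mice to see which cyclins and CDKs separate resting memory cells from cells of the GC. Ccnd2 was higher in MBCs, Ccnd3, Cdk4, Ccnb1 and Ccnb2 were lower, and 5 genes did not pass the test. The test was made with limma on the log2(TPM + 1) scale, which makes changes of low genes look smaller, with Benjamini-Hochberg adjustment over 13245 genes. Over all genes tested, 4.17% were called higher and 5.04% lower, against 1 and 4 of the 10 genes here. The groups did not overlap in 1 gene that was higher (11.8% of all genes) and in 7 that were lower (14.4% of all genes). The median log2 difference was -1.69 over the 10 genes and -0.14 over all genes tested. The calls depended on the model and on the libraries in the fit. With the mouse as a block, over the 6 libraries of the 3 mice that gave both cell types, 0 of the 10 genes passed, the lowest adjusted p being 0.0753 for Ccnb2. That fit leaves out Myc WT LZ mouse 2, which gave no MBC library. On the same 6 libraries without the block 0 passed as well, so the lost calls cannot be credited to the block. Without Myc WT LZ mouse 1, 0 passed too, and with all 3 groups in 1 fit 8 passed. The exact permutation test of each gene singly, two-sided over 35 groupings of 4 libraries against 3, gave p = 0.0286, the smallest it can give, for 7 genes, 0.0571 for Ccnb1 and Ccne2, and 0.971 for Ccne1. Ccnb1, which passed in limma, was thus above 0.05 in this test.

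Ccnd2 (ENSMUSG00000000184, chr6:127125162-127152193), cyclin D2, a D-type cyclin induced by the B cell receptor in follicular B cells, was at 2.90, 4.58, 9.05 and 6.42 TPM in Myc WT LZ B cells of mice 1 to 4. It was at 28.8, 27.8 and 23.9 TPM in MBCs of mice 1, 3 and 4. The groups did not overlap, and the MBC libraries lay close together. Its mean was 4.67 times that of LZ cells, and the log2 difference was 2.13 (SE 0.44, limma adjusted p = 0.0223). In the LZ of the genotype with mutant MYC it was at 5.90, 3.17, 5.71 and 10.0 TPM, all below the MBC values.

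Ccnd3 (ENSMUSG00000034165, chr17:47505051-47599691), cyclin D3, was at 160, 99.2, 136 and 78.9 TPM in Myc WT LZ B cells. In MBCs it was at 66.5, 23.2 and 32.2 TPM, with mouse 1 nearest to the LZ libraries and no overlap. The log2 difference was -1.61 (SE 0.40, limma adjusted p = 0.0416). The pair moved in opposite directions, so its makeup differed within each library. Ccnd2 made up 1.78 to 7.52% of the summed TPM of both genes in Myc WT LZ B cells, 2.07 to 10.6% in Myc VD LZ B cells and 30.2, 54.5 and 42.5% in MBCs. The summed level of both genes was 85.4 to 163 TPM in Myc WT LZ B cells and 95.3, 51.0 and 56.1 TPM in MBCs.

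**Figure D2:**
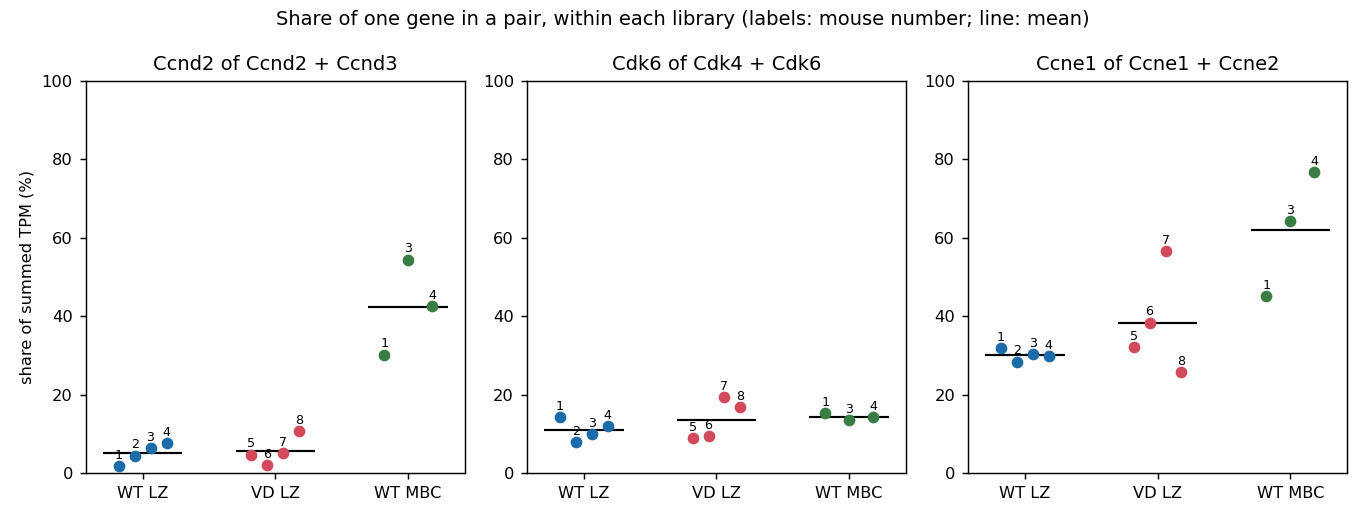
Share of 1 gene in the summed TPM of a pair, in percent, for each library by group, with mouse numbers and a line at the mean. The Ccnd2 share is 30.2 to 54.5% in MBCs and at most 10.6% in LZ libraries, while the Cdk6 share of MBCs (13.6 to 15.2%) lies within the range of the LZ libraries.

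Cdk4 (ENSMUSG00000006728, chr10:127063534-127067920), a catalytic partner of D-type cyclins, was at 172, 220, 234 and 125 TPM in Myc WT LZ B cells. The MBC libraries had 50.3, 29.6 and 77.6 TPM. Every MBC library lay below every LZ library, with a mean 3.57 times lower and a log2 difference of -1.88 (SE 0.37, limma adjusted p = 0.0174). Cdk6 (ENSMUSG00000040274, chr5:3341485-3531008), the other partner of D-type cyclins, was at 28.4, 18.9, 25.7 and 16.9 TPM in LZ cells and, in MBCs, at 9.0, 4.65 and 12.9 TPM. Its groups did not overlap either, but its log2 difference of -1.31 (95% interval -2.29 to -0.33) had an adjusted p of 0.0909 in limma. Cdk6 passed in 3 of 17 alternatives. These were without MBCs of mouse 4 (-1.61, limma adjusted p = 0.0337), by quantile normalization (0.0432) and with all 3 groups in 1 fit (0.0442). The Cdk6 share of the summed TPM of both kinases was 7.91 to 14.2% in Myc WT LZ B cells and 13.6 to 15.2% in MBCs, ranges that overlapped.

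Ccne1 (ENSMUSG00000002068, chr7:38097984-38107534) and Ccne2 (ENSMUSG00000028212, chr4:11191351-11204779) encode the E-type cyclins, which activate CDK2 at the entry into S phase. Ccne1 was at 6.46, 11.1, 11.7 and 8.76 TPM in Myc WT LZ B cells. Its MBC values were 12.7, 5.15 and 11.5 TPM. These ranges overlapped, the log2 difference was -0.02 (95% interval -1.07 to 1.03), and Ccne1 was alone among the 10 genes in having no unadjusted p under 0.05 in this comparison. Ccne2 was at 13.83, 28.0, 26.8 and 20.6 TPM in LZ cells and at 15.5, 2.87 and 3.47 TPM in MBCs. MBCs of mouse 1 overlapped the LZ range, whereas those of mice 3 and 4 lay far below it, and the log2 difference of -1.78 (SE 0.58) had an adjusted p of 0.0875 in limma. Without MBCs of mouse 1 the log2 difference was -2.44, and Ccne2 then passed (limma adjusted p = 0.0169). The Ccne1 share of both E-type cyclins was 28.4 to 31.8% in Myc WT LZ B cells, a narrow range, and 45.1, 64.2 and 76.7% in MBCs.

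Cdk2 (ENSMUSG00000025358, chr10:128697939-128705031), the kinase of cyclins E and A, was at 17.7, 19.3, 22.4 and 16.9 TPM in Myc WT LZ B cells. In MBCs it was at 7.39, 8.73 and 3.94 TPM, below every Myc WT LZ library. The log2 difference was -1.43 (95% interval -2.34 to -0.53, limma adjusted p = 0.0567). With a filter at a mean of 5 TPM Cdk2 passed the threshold, with an adjusted p of 0.0468 in limma.

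Ccna2 (ENSMUSG00000027715, chr3:36564865-36572150), cyclin A2, was at 145, 107, 179 and 79.6 TPM in Myc WT LZ B cells. In MBCs it was at 47.8, 1.83 and 49.6 TPM, so that mouse 3 stood far below mice 1 and 4. All MBC values lay below all LZ values, but the spread among MBCs was wide and the log2 difference of -2.69 (SE 0.92) had an adjusted p of 0.102 in limma. Without MBCs of mouse 3 the log2 difference was -1.31, and the gene then passed (limma adjusted p = 0.0443). It was -3.36 without those of mouse 1 and -3.39 without those of mouse 4, and the gene did not pass (limma adjusted p = 0.0748 and 0.0567).

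Ccnb1 (ENSMUSG00000041431, chr13:100778650-100786570), cyclin B1, the main mitotic partner of CDK1, was at 108, 103, 109 and 30.5 TPM in Myc WT LZ B cells. In MBCs it was at 17.9, 16.5 and 25.0 TPM. LZ mouse 4 stood well below the other LZ mice and just above the highest MBC library. The log2 difference was -1.95 (SE 0.48, limma adjusted p = 0.0370), and -2.40 without LZ mouse 4. Ccnb1 has near-identical processed pseudogenes, Ccnb1-ps (99.2% identity over 1287 bases) and Gm12856 (98.1% over 1294 bases), listed at no more than 1.24 and 0.35 TPM, so reads assigned between them are uncertain.

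Ccnb2 (ENSMUSG00000032218, chr9:70407692-70421547), cyclin B2, was at 65.9, 64.0, 91.0 and 40.7 TPM in Myc WT LZ B cells. In MBCs it was at 12.0 TPM in mouse 1 and 11.3 TPM in mouse 4, and it was listed at 0 in mouse 3. All MBC values lay below all LZ values. The log2 difference was -3.56 (SE 0.85, limma adjusted p = 0.0342), and without MBCs of mouse 3 it was -2.34. The summed TPM of Ccna2, Ccnb1 and Ccnb2 ran from 151 to 379 in Myc WT LZ B cells and was 77.6, 18.3 and 85.9 in MBCs.

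**Figure D3:**
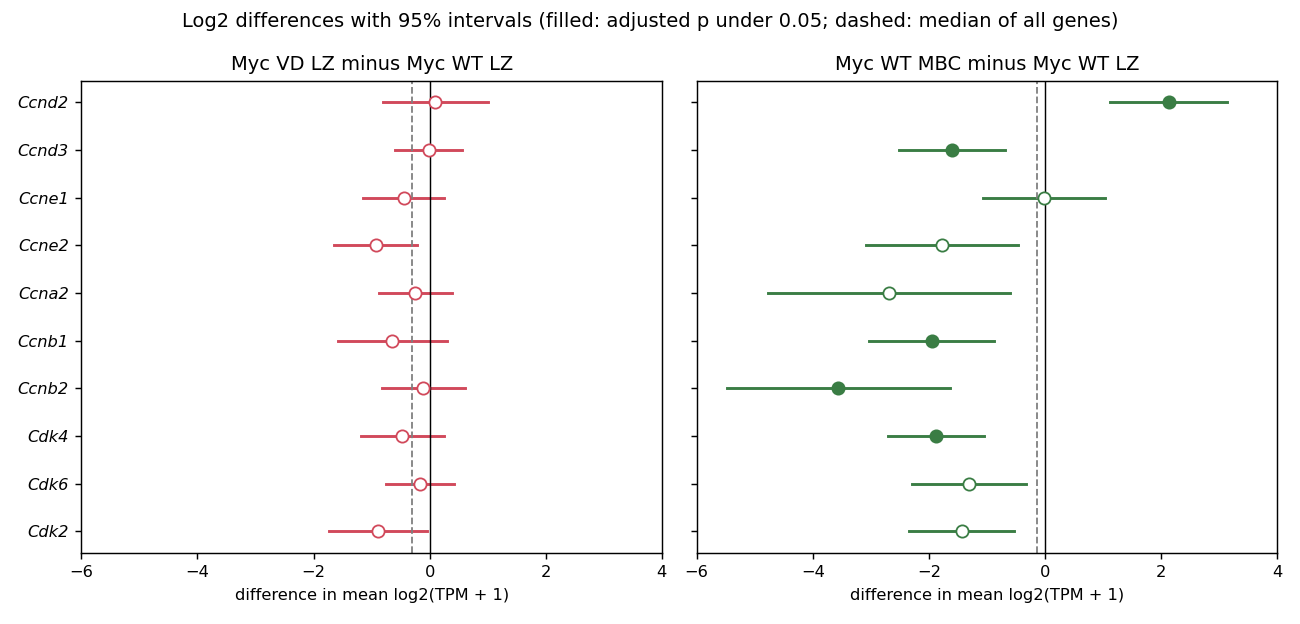
Difference in mean log2(TPM + 1) of each gene, Myc VD minus Myc WT LZ B cells on the left and Myc WT MBCs minus LZ B cells on the right, with 95% intervals, filled points for an adjusted p under 0.05 and a dashed line at the median of all genes (-0.31 and -0.14). 5 points are filled on the right and 0 on the left.

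Leaving out single libraries changed which of the 5 genes were called. Ccnd2 lost its call without LZ mouse 1, 2 or 4, Ccnb2 without any of the 4 LZ mice, and Ccnd3 without any of these or MBCs of mouse 3 or 4. Cdk4 lost it without LZ mouse 1, 2 or 3, and Ccnb1 without LZ mouse 1, 2 or 3 or MBCs of mouse 1 or 3. Over these fits the log2 difference of Ccnd2 lay between 1.89 and 2.35, that of Cdk4 between -2.21 and -1.53 and that of Ccnd3 between -2.02 and -1.28. Within the mice of prefix BRAC861 alone (3 LZ and 2 MBC libraries), Cdk4 (-2.39) and Ccnb1 (-2.57) passed, and Ccnd2 (2.28), Ccnd3 (-1.69) and Ccnb2 (-4.35) did not (limma adjusted p from 0.0544 to 0.0875).

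Mice 1, 3 and 4 gave both cell types, so the difference could be read within each mouse. Ccnd2 was higher in MBCs of all 3 mice, by 2.93, 1.52 and 1.74 on the log2(TPM + 1) scale. Ccnd3, Ccna2, Ccnb1, Ccnb2, Cdk4, Cdk6 and Cdk2 were lower in MBCs of all 3 mice. Mouse 4 had the smallest difference in Ccna2 (-0.67), Ccnb1 (-0.28), Ccnb2 (-1.76), Cdk4 (-0.68) and Cdk6 (-0.36), and mouse 3 the largest in each of these genes. Ccne1 and Ccne2 went both ways among the mice. The plot of differences within each mouse shows this order.

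**Figure D4:**
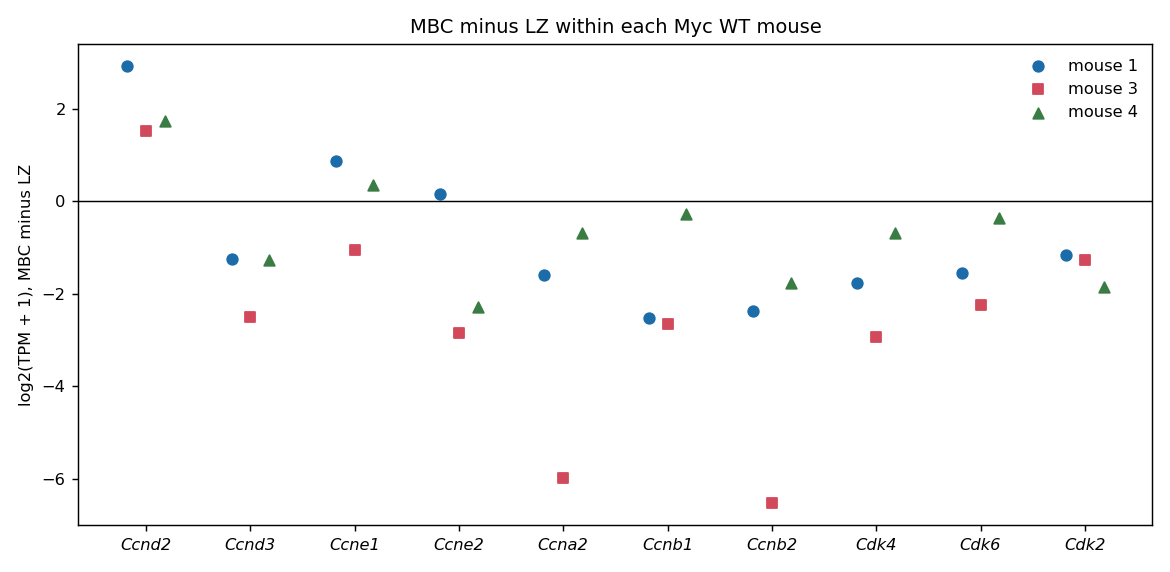
MBC minus LZ difference in log2(TPM + 1) within each of Myc WT mice 1, 3 and 4, for the 10 genes, with 1 point per mouse. Ccnd2 lies above 0 and 7 genes lie below 0 in all 3 mice, while Ccne1 and Ccne2 have points on both sides.

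Markers of other cells differed among the MBC libraries. Over 6 memory markers (Cd38, Pdcd1lg2, Ccr6, Gpr183, S1pr1 and Klf2) the summed level was 563 to 697 TPM in MBCs and 31.6 to 35.6 TPM in Myc WT LZ B cells. Cd38 (200 to 276 TPM in MBCs) and Pdcd1lg2, which encodes CD273, were used in the sort, as were Fas and Cd86 of the LZ list. These genes are therefore no independent check of the sorted cells. Over 7 LZ and GC markers the summed level was 451 to 581 TPM in MBCs, 858 to 1074 TPM in Myc WT and 622 to 908 TPM in Myc VD LZ B cells. Most of the sum in MBCs was Cd83 (155 to 307 TPM) and Cd86 (163 to 197 TPM), which LZ B cells of Myc WT mice held at 166 to 274 and 207 to 290 TPM. Bcl6 was at 23.2 to 53.4 TPM in MBCs against 156 to 215 TPM, S1pr2 at 0.06 to 15.2 against 60.6 to 89.7 TPM, and Mef2b at 0.14 to 5.64 against 73.2 to 108 TPM. Of the MBC libraries, that of mouse 3 was the lowest for these genes and for Fas, but the highest for Cd83, Cd86 and Rgs13, which was at 21.8, 47.9 and 7.11 TPM in mice 1, 3 and 4 against 69.6 to 104 TPM. Over 4 erythroid markers, the summed level was 4769 TPM in MBCs of mouse 3, with Hbb-bs at 2609 TPM, but 6.21 and 37.4 TPM in the other MBC libraries and 104 to 210 TPM in Myc WT LZ B cells. Myeloid markers (5 genes) summed to 16.1 to 165 TPM in MBCs and 0.82 to 5.79 TPM in Myc WT LZ B cells. T cell markers (6 genes) were all at 0 in MBCs of mice 1 and 3 and summed to 30.1 TPM in those of mouse 4, against 0.11 to 3.98 TPM in Myc WT LZ B cells. Plasma cell markers (5 genes) overlapped, at 193 to 402 TPM in MBCs and 229 to 381 TPM in Myc WT LZ B cells, and naive follicular markers (3 genes) summed to 788 to 834 and 363 to 367 TPM. Dark zone markers (4 genes) summed to 597 to 944 TPM in MBCs and 303 to 453 TPM in Myc WT LZ B cells. Foxp1 made up most of this in MBCs (518 to 915 TPM, against 156 to 205 TPM), while Gcsam (0.05 to 11 against 33.5 to 68.2 TPM) and Hmmr (0.30 to 21.5 against 41.9 to 90.7 TPM) were below every Myc WT LZ library. B cell markers (5 genes) summed to 4914 to 6000 and 2905 to 3545 TPM. In Myc VD LZ B cells, plasma cell markers summed to 134 to 221 TPM, below every Myc WT LZ library. Of these genes only Jchain was apart, at 67.1 to 144 TPM against 152 to 280 TPM, as were 9.16% of all genes in this direction. Sdc1, Prdm1, Xbp1 and Irf4 overlapped. Sdc1 in mouse 7 (6.05 TPM), Prdm1 in mice 7 and 8 (4.07 and 4.08 TPM) and Irf4 in mouse 6 (32.4 TPM) lay above every Myc WT LZ library. The other sums overlapped between the genotypes, at 15.4 to 49.96 TPM for memory, 316 to 572 TPM for dark zone, 289 to 401 TPM for naive follicular and 2125 to 3225 TPM for B cell markers in Myc VD, and at 64.8 to 327 TPM for erythroid, 0 to 12.4 TPM for myeloid and 0 to 11.1 TPM for T cell markers. The part of these cells in the differences was not tested.

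Among libraries as a whole, 11527 to 16040 genes were above 0 in MBCs, with the fewest in mouse 3, 15460 to 19537 in Myc WT and 13169 to 16421 in Myc VD LZ B cells. Of 6668 genes at a mean of 10 TPM or more over the LZ libraries, 421 were listed at 0 in MBCs of mouse 3 and 57 in those of mouse 4, whose median correlation with Myc WT LZ libraries (0.938) was the highest of the MBC libraries. Ribosomal RNA took 36.1 to 37.5% of TPM in MBCs, 35.7 to 44.5% in Myc WT and 44.1 to 61.3% in Myc VD LZ B cells.

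Other cell cycle genes were read from 8 fixed lists, of regulators of cyclin-CDK complexes, transcription factors of the cell cycle and proliferation markers, and tested in the same fits. Of 71 genes tested in MBCs 22 were called, 6 of them the proliferation markers, and each of the 22 kept its direction in the 17 alternatives. With the mouse as a block 10 of the 22 passed in limma (Birc5, Cks1b, Cks2, E2f8, Foxm1, Mki67, Pcna, Rrm2, Top2a and Ube2c). The others, Ccnf, Cdc20, Cdc25b, Cdk1, Cdkn1b, E2f7, Mcm2, Mybl2, Rb1, Rbl1, Tfdp1 and Wee1, had adjusted p of 0.0674 to 0.195 in limma under the block. Mcm2 and Pcna are given here because they were called, although the naming rule left them out in this comparison. With 1 library left out 8 to 21 passed, 8 being without Myc WT LZ mouse 1, 2 or 3. Cdk1, Cdkn1b and Wee1 passed in 7 of the 17 alternatives. The counts of genes called in MBCs are to be read against the 4.17% of all genes called higher and 5.04% called lower. Of 17 other cyclins, 14 were tested, and only Ccnf, an F-box protein that targets substrates for degradation, was called lower (log2 difference -2.62, limma adjusted p = 0.0117). The median of these cyclins was 0.20, above the -0.14 of all genes tested. Of 14 other CDK genes tested, only Cdk1, the mitotic kinase, was called lower, at 71.8 to 128 TPM in Myc WT LZ B cells and 4.49, 1.65 and 45.7 TPM in MBCs of mice 1, 3 and 4 (log2 difference -3.47, limma adjusted p = 0.0358). Single calls among 14 genes are close to the share of all genes called lower. The library of mouse 4 was the highest of the MBCs for Cdk1, as for Cdk4 and Cdk6.

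Of 4 CDK inhibitors tested, Cdkn1b, which encodes p27, was called higher in MBCs, at 9.13, 44.6 and 27.8 TPM against 3.92 to 4.78 TPM in Myc WT LZ B cells (log2 difference 2.13, limma adjusted p = 0.0457). The other 3, Cdkn1a (-1.78), Cdkn2c (-1.56) and Cdkn2d (-1.79), named here after their values were seen, had lower means in MBCs and did not pass, and the list median was -1.67. Of 7 CDK phosphatases, inhibitory kinases and CKS subunits tested, 4 were called lower in MBCs. The mean log2 difference was below 0 for all 7, as for 55.3% of all genes, with a median of -2.61. Of the 3 that did not pass, named here after their values were seen, Cdc25a was at -1.17, Cdc25c at -1.76 with overlapping groups, and Pkmyt1 at -1.59, with 38.75 TPM in MBCs of mouse 3, above the 13.9 to 19.0 TPM of Myc WT LZ B cells, and 0.76 and 1.82 TPM in those of mice 1 and 4. Cks2 (-4.98, limma adjusted p = 0.00363) and Cks1b (-4.69, adjusted p = 0.0125) encode small CDK-binding subunits, Cdc25b (-3.19, adjusted p = 0.0336) a phosphatase that activates CDKs, and Wee1 (-2.61, adjusted p = 0.0492) a kinase that inhibits them. Cks2 was at 81.9 to 111 TPM in Myc WT LZ B cells, at 2.99 and 7.05 TPM in MBCs of mice 1 and 4, and listed at 0 in those of mouse 3, as was Cdc20, while E2f7 was listed at 0 in those of mouse 1.

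Of 7 genes of cyclin degradation, Cdc20 (-3.85, limma adjusted p = 0.0215), an activator of the anaphase-promoting complex, and Ube2c (-3.84, adjusted p = 0.0272), its ubiquitin-conjugating enzyme, were called lower, and the median of the list was -2.0. Of 13 pocket protein and E2F genes, 1 was called higher and 4 lower, with a median of -0.97. Rb1, the retinoblastoma protein that D-type cyclin kinases phosphorylate, was at 60.7, 45.4 and 58.4 TPM in MBCs and 8.01 to 13.0 TPM in Myc WT LZ B cells (log2 difference 2.31, limma adjusted p = 0.00562). E2f8 (-4.30, adjusted p = 0.00207) and E2f7 (-2.70, adjusted p = 0.0484), repressive E2F proteins, were lower, as was Rbl1, the pocket protein p107 (-2.70, adjusted p = 0.0226); Tfdp1, which the naming rule left out and which was added after its values were seen, was the other (-1.90, adjusted p = 0.0294).

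Of 6 regulators of G2/M genes (Mybl2, Foxm1, Lin9, Lin37, Lin52 and Lin54), 2 were called lower. These were Mybl2 (-3.26, limma adjusted p = 0.0193) and Foxm1 (-2.67, adjusted p = 0.00819), and the list median was -0.49. All 6 proliferation markers were called lower, with a median of -2.04. Mki67 was at 265 to 552 TPM in Myc WT LZ B cells and 75.1, 92.0 and 109 TPM in MBCs (log2 difference -2.11, limma adjusted p = 0.00582), and Birc5 (-3.89), Rrm2 (-2.97) and Top2a (-1.98) were the other genes named by the rule. Myc, whose product is known to promote the expression of several of these genes, was at 32.6, 35.5, 45.2 and 30.7 TPM in Myc WT LZ B cells and 82.9, 43.2 and 69.7 TPM in MBCs (log2 difference 0.81, limma adjusted p = 0.139).

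**Figure D5:**
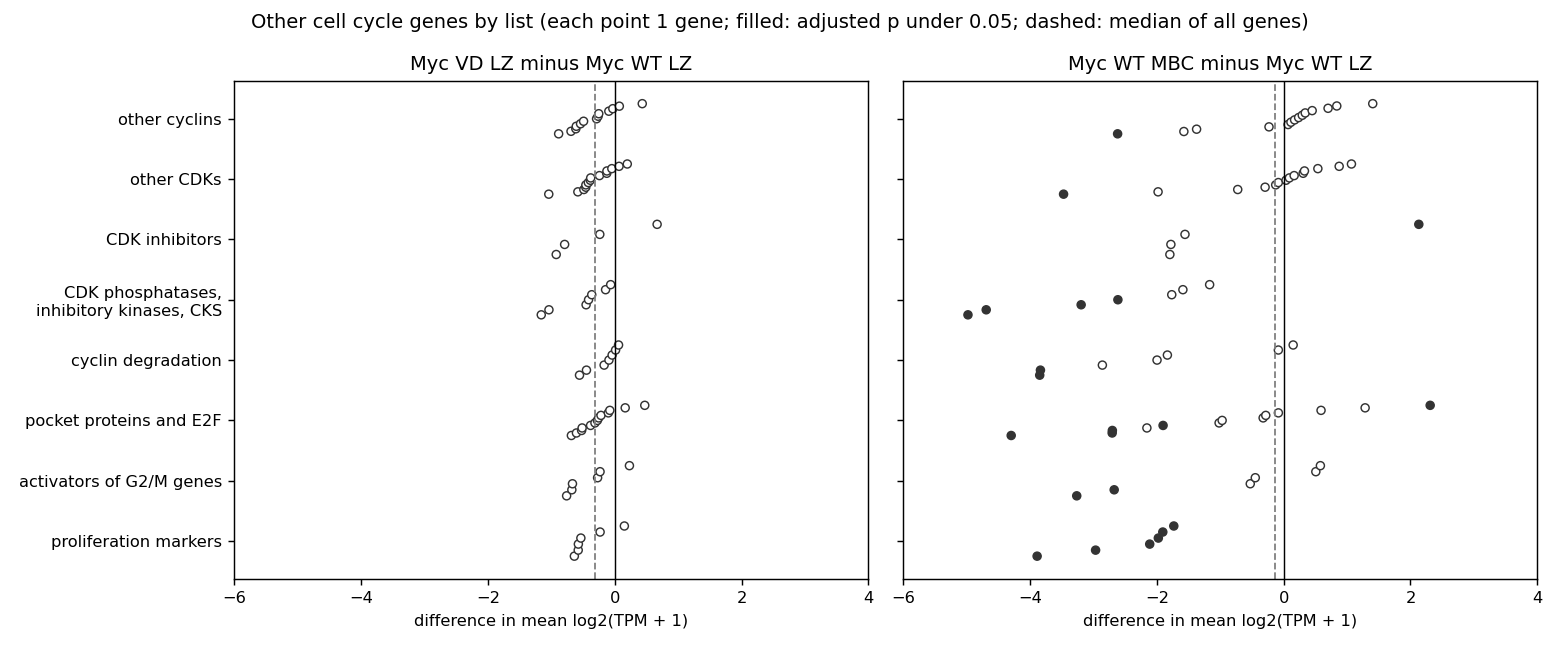
Difference in mean log2(TPM + 1) of the genes of 8 lists of cell cycle genes, Myc VD minus Myc WT LZ B cells on the left and Myc WT MBCs minus LZ B cells on the right, with 1 point per gene tested, filled at an adjusted p under 0.05, and a dashed line at the median of all genes. On the right 2 filled points (Cdkn1b and Rb1) lie above 0 and the others below it, and on the left 0 points are filled.

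Myc VD was set against Myc WT in LZ B cells to see whether the loss of MIZ1 binding by MYC changes the RNA of cyclins and CDKs. This comparison shares its Myc WT LZ libraries with that of MBCs. In limma, 0 of the 10 genes had an adjusted p under 0.05, a threshold that 0.0466% of all 12869 genes tested passed in either direction. Ccne2 and Cdk2 were lower at an unadjusted p under 0.05, as were 15.7% of all genes, and in both the groups did not overlap, as in 9.16% of all genes. 9 of the 10 genes had lower means on the log2 scale in Myc VD, but so had 73.7% of all genes tested, whose median log2 difference was -0.31. The median over the 10 genes was -0.35. Rescaling TPM by the median ratio took the median of all genes to -0.01, with 5 of the 10 genes then higher and 0 with an unadjusted p under 0.05. For the 10 genes, values relative to the median of all genes are therefore given beside each difference.

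Ccne2 was at 12.2, 13.4, 6.17 and 13.3 TPM in Myc VD LZ B cells of mice 5 to 8, against 13.83 to 28.0 TPM in Myc WT. Its highest Myc VD value, in mouse 6, lay just under its lowest Myc WT value, in mouse 1. The log2 difference was -0.93 (SE 0.33, adjusted p = 0.199 in limma) and -0.63 relative to all genes. Cdk2 was at 14.1, 3.60, 11.3 and 15.0 TPM in Myc VD, against 16.9 to 22.4 TPM in Myc WT. Mouse 6 was far below the others, the log2 difference was -0.89 (SE 0.39, adjusted p = 0.275 in limma), and relative to all genes it was -0.58. The exact permutation test, two-sided over 70 groupings of 4 mice against 4, gave p = 0.0286 for each, the smallest it can give, which follows from groups that do not overlap, and 0.114 to 1 for the other 8 genes. Both lost the unadjusted threshold after rescaling by the median ratio. Cdk2 also lost it without Myc VD mouse 6, where its log2 difference was -0.47, and without any 1 of the 4 Myc WT mice, and Ccne2 lost it without Myc WT mouse 2 (-0.81).

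Ccne1, the other E-type cyclin, was at 5.73, 8.32, 8.05 and 4.63 TPM in Myc VD, which overlapped the 6.46 to 11.7 TPM of Myc WT (log2 difference -0.45, -0.14 relative to all genes). The Ccne1 share of both E-type cyclins was 25.8 to 56.6% in Myc VD and 28.4 to 31.8% in Myc WT. The wide range in Myc VD came with mouse 7, in which Ccne2 was lowest.

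Among D-type cyclins and their kinases, the genotypes overlapped in all 4 genes. Ccnd3 was at 120, 150, 107 and 84.8 TPM in Myc VD, with a log2 difference of -0.02 (95% interval -0.59 to 0.56) and 0.29 relative to all genes. Ccnd2 differed by 0.10 (95% interval -0.80 to 1.00) and by 0.41 relative to all genes. Neither interval leaves out a difference of 0, and both leave room for changes of the size of their bounds. Cdk4 was at 243, 145, 95.3 and 88.4 TPM in Myc VD, from above the highest Myc WT library in mouse 5 to below the lowest in mice 7 and 8 (log2 difference -0.47, 95% interval -1.18 to 0.24, -0.16 relative to all genes). Without mouse 5 its log2 difference was -0.77, with an unadjusted p of 0.0178 in limma. Cdk6 was at 23.6, 14.9, 22.9 and 17.8 TPM (log2 difference -0.17, 0.14 relative to all genes).

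The cyclins of S phase and mitosis overlapped between the genotypes as well. Ccna2 was at 139, 116, 98.1 and 69.9 TPM in Myc VD (log2 difference -0.25, 0.06 relative to all genes). Ccnb2 was at 90.7, 68.3, 54.8 and 33.5 TPM (log2 difference -0.11, 0.20 relative to all genes). Ccnb1 was at 72.4, 65.1, 47.0 and 27.2 TPM, below 3 of the 4 Myc WT libraries in every mouse, but Myc WT mouse 4 was at 30.5 TPM (log2 difference -0.65, 95% interval -1.58 to 0.29, -0.34 relative to all genes). Without that library the log2 difference was -1.09, with an unadjusted p of 0.00645 in limma, and it did not pass after adjustment. Among Myc VD libraries, mouse 5 was the highest and mouse 8 the lowest for all 3 genes. The ribosomal RNA share of TPM rose from mouse 5 to mouse 8, at 44.1, 49.8, 52.1 and 61.3%. Myc WT mouse 4, the lowest of its group for these genes, had the highest share of its group, 44.5%. The part of ribosomal RNA in this order was not tested. The sum of these 3 cyclins was 302, 249, 200 and 131 TPM in mice 5 to 8 and 319, 274, 379 and 151 TPM in mice 1 to 4.

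In the lists of other cell cycle genes, 0 genes were called between the genotypes in limma. By the rule for lists without a call, Cks1b and Cks2 were named among phosphatases, inhibitory kinases and CKS subunits, and both had lower values in every Myc VD than in every Myc WT library, as had 9.16% of all genes. Cks1b was at 61.0, 61.9, 38.2 and 38.7 TPM in Myc VD and 68.0 to 160 TPM in Myc WT (log2 difference -1.16, -0.85 relative to all genes, adjusted p = 0.114 in limma). Cks2 was at 76.5, 48.0, 40.1 and 35.3 TPM and at 81.9 to 111 TPM (log2 difference -1.04, -0.73 relative to all genes, adjusted p = 0.113 in limma). The other genes so named, none of which passed, were Ccnc (-0.89) and Ccng1 (-0.69) among cyclins, Mnat1 (-1.04), a subunit of the CDK-activating kinase, and Cdk1 (-0.58) among CDK genes, and Cdkn1a (-0.92) and Cdkn2c (-0.79) among inhibitors. Cdkn1b, outside the rule in this comparison and named after its values were seen, had a higher mean (log2 difference 0.67, 0.97 relative to all genes, adjusted p = 0.430 in limma), at 5.34, 18.6, 5.33 and 5.87 TPM in Myc VD and 3.92 to 4.78 TPM in Myc WT, with no overlap, as in 0.816% of all genes in this direction. In cyclin degradation they were Skp2 (-0.56) and Cdc20 (-0.45). E2f5 (-0.69), E2f6 (-0.61), Lin54 (-0.76), Lin37 (-0.68), Pcna (-0.64) and Rrm2 (-0.58) were those of the remaining lists. List medians ran from -0.56 (proliferation markers) to -0.09 (cyclin degradation), around the -0.31 of all genes. Mki67 was at 369 to 610 TPM in Myc VD and 265 to 552 TPM in Myc WT, and Myc at 66.8, 48.2, 24.9 and 44.3 TPM in Myc VD (log2 difference 0.28, adjusted p = 0.645 in limma).

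The genes most like each of the 10 over the 11 libraries were named by Pearson r of log2(TPM + 1) among 9195 genes, as a description, since the libraries fall into 2 cell types and 3 mice gave 2 libraries each. Ccnb2 was most like Bub1b, a spindle checkpoint kinase (r = 0.991), and the GC receptor gene S1pr2 (0.990), and Ccna2 was most like Spdl1 (0.988) and Mtmr14 (0.987). Ccnd3 came next, with Clspn, a replication checkpoint gene (0.987), and Chchd10 (0.973), then Cdk4, with Tipin, of the replication fork (0.980), and Hmgb1 (0.977), and Cdk6, with Rab35 (0.978) and Calr (0.975). Ccnb1 was most like Ndufaf7 (0.954) and Rrm2b (0.953), and Ccnd2 was most like Kif1b (0.949) and A430078G23Rik (0.948). The values were lowest for Ccne1, with Zfp930 (0.946) and Nfyb (0.913), Cdk2, with Marcksl1 (0.921) and Gatm (0.920), and Ccne2, with Pop5 (0.918) and Wdhd1 (0.915).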

How the data were processed

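RNA-seq of 11 sorted B cell libraries was analysed. Per the paper's methods and the submitters' processing notes, the authors aligned reads with STAR 2.5.2a, quantified genes with RSEM 1.3.0 in a strand-specific setting on GRCm38, and deposited TPM in 1 table. The annotation release is not given in the sources used here. Differential tests of the authors were not repeated, since read counts were not analysed here.

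Symbols and coordinates came from GENCODE M21 (48435 of 48795 identifiers have a symbol) and promoters from RefSeq tables. limma 3.58.1 in R 4.3.3 (lmFit, eBayes with trend) was run on log2(TPM + 1), with a mean over the fit of at least 1 TPM as filter and the libraries of the 2 groups compared, two-sided and with Benjamini-Hochberg adjustment at 0.05 over all genes. Each of the 10 genes was also tested singly with an exact permutation test (numpy 2.4.6). Pseudogenes and overlaps were found with blastn 2.17.0 (at least 95% identity over 300 bases), and the fits were tested on simulated data. The genes, lists and tests were chosen with earlier results of these data known. From each list were named the genes with an adjusted p under 0.05, at most 4 per comparison by size of difference, or else the 2 largest differences, with Myc and Mki67 and the 2 genes most like each of the 10. From the cell type markers, 3 genes are not reported here and were left out of the sums.

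MBC and LZ libraries of mice 1, 3 and 4 pair by mouse in the labels. Their deviations from group means correlated with r = 0.00711, 0.0114 and -0.0463. The alternatives were no filter, a filter at 5 TPM, a pseudocount of 0.1, quantile normalization, rescaling by the median ratio, leaving out 820 ribosomal RNA, immunoglobulin and mitochondrial genes, no trend, all 3 groups in 1 fit, a replicate block for the mouse, the mice of prefix BRAC861 alone and each library left out in turn.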

Additional observations from a re-analysis of the deposited data

Results flagged for a closer look

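In 20 groups of 4 libraries tested with Dixon's ratio (10 genes in each genotype of LZ B cells), chance flags about 1 in 20, and 2 were flagged. Ccnb1 in Myc WT LZ mouse 4, at 30.5 TPM, stood apart from 103 to 109 TPM in the other mice (ratio 0.915). Ccne2 in Myc VD LZ mouse 7, at 6.17 TPM, stood apart from 12.2 to 13.4 TPM in the other mice, with a ratio only just past the critical value.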

How the results depend on the processing

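In MBCs against LZ B cells, 5 of the 10 genes passed, with 1219 of all genes. The count of the 10 was 2 with no filter (608 genes in all), 2 without a trend, 8 with all 3 groups in 1 fit and 2 in the mice of prefix BRAC861. In the paired fit, with a replicate block for the mouse, it was 0, with 248 genes in all (130 higher, 118 lower). That fit leaves out LZ mouse 2, and on the same libraries without the block the count of the 10 was also 0. With 1 library left out it ran from 0 to 6, and the count of all genes from 342 to 2754. Ccnd2, Cdk4, Ccnb2, Ccnb1 and Ccnd3 kept their direction in all 17 alternatives. Ccne1, at -0.02, turned to 0.18 by quantile normalization and 0.061 under the block, and ran from -0.23 to 0.35 with 1 library left out.

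In Myc VD against Myc WT, 0 of the 10 genes passed in every alternative run, with 6 of all genes in the fit reported. The count of all genes was 0 with a pseudocount of 0.1, 0 with no filter, 15 at a mean of at least 5 TPM, 0 after the median ratio, 1 with ribosomal RNA, immunoglobulin and mitochondrial genes removed and 0 with all 3 groups. It ran from 0 to 254 with 1 library left out, 254 being without Myc VD mouse 5. Rescaling by the median ratio, quantile normalization and removal of those genes turned the direction of Ccnd3 (0.33, 0.28 and 0.33), Ccna2 (0.095, 0.050 and 0.099), Ccnb2 (0.23, 0.14 and 0.23) and Cdk6 (0.16, 0.10 and 0.17). With 1 library left out, Ccnd2 ran from -0.14 to 0.33, Ccnd3 from -0.19 to 0.15 and Ccnb2 from -0.32 to 0.15. Of the larger differences, Cdk2 ran from -1.07 to -0.47, Ccnb1 from -1.09 to -0.36, Cdk4 from -0.77 to -0.28 and Ccne2 from -1.13 to -0.69. The cause of these changes was not tested. Depth is unknown, so the error of low values such as those of Ccne1 and Ccnd2 rests on 3 or 4 mice.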

Other observations

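Over the 8 LZ libraries, log2(TPM + 1) of Ccna2 and Ccnb2 correlated with r = 0.938, that of Ccna2 and Ccnb1 with 0.887 and that of Ccnb1 and Ccnb2 with 0.850, while Ccnd2 and Ccnd3 had r = -0.59. Cdk4 correlated with Ccna2 at 0.801 and with Ccnb2 at 0.851. These values are a description: the libraries include both genotypes and share the TPM scale, and no p is given. Ribosomal RNA took 35.7 to 61.3% of TPM in these libraries, and its part in the correlations was not tested.

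The antisense gene Gm43126, which overlaps Ccnd2, was listed at 28.8 TPM in LZ B cells of Myc VD mouse 6 and at no more than 10.6 TPM in the other libraries, with reads assigned by strand. Ccnd2 was at 3.17 TPM in that library, the lowest of the Myc VD mice.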
